A study of Mus musculus with 3 samples.

Results

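Enteroendocrine cells (EECs), the hormone-secreting cells of the intestinal epithelium, were followed in 3 droplet single-cell libraries of mouse small intestinal crypts. A cell was taken as enteroendocrine when its barcode had at least 500 genes, at least 1000 unique molecular identifiers (UMIs, each standing for 1 captured transcript) and at most 20% mitochondrial UMIs. It also had no UMI of Ptprc, the gene of the blood cell antigen CD45, and at least 3 UMIs of the granin genes Chga and Chgb together, making up at least 0.1% of its UMIs. The limits left 90 cells of 3311 kept barcodes without Ptprc and of 14387 deposited barcodes. There were 27 cells of 1697 in the Cdc42 knockout (KO), 19 of 999 in the rescue and 44 of 615 in the control.

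All mice were C57BL/6 adults of 2 to 3 months and carried Olfm4-IRES-eGFPCreERT2, a tamoxifen-dependent Cre recombinase expressed from the locus of the crypt stem cell gene Olfm4. The KO was CDC42flox/flox, and the rescue was also CDC42flox/flox, with Yapflox/flox and Tazflox/+ added. The control, titled HET, was CDC42+/flox, so that it too carried 1 floxed Cdc42 allele, and no mouse without the Cre or the floxed allele was included. The study concerned the polarity GTPase CDC42 in the passage of stem cells to transit-amplifying cells, and the part of YAP signalling in it. Crypts were digested with 3x TripLE for 1 h, and 4000 to 5000 cells were harvested per sample. Cre acts in Olfm4-expressing cells and is passed on to their progeny, so that an EEC could carry the deletion only by descent from such a cell. The time after induction and the number of mice behind a library are not given in the sources used here.

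EECs arise from crypt progenitors that switch on the basic helix-loop-helix factor Neurog3 for a short time, after which Neurod1, Insm1, Nkx2-2 and other factors take over and each cell settles on a small set of hormones. Enterochromaffin cells make serotonin with Tph1 and often the tachykinin precursor Tac1, while other EECs make secretin, cholecystokinin, ghrelin, glucagon-like peptides, peptide YY, neurotensin, GIP or somatostatin. The granins Chga and Chgb are packed with the hormones in dense-core vesicles and mark most EECs.

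Each genotype was 1 library, so there was no replicate, and no difference between genotypes has a replicate check or a p-value. Levels are UMIs of a gene per 1000000 UMIs of the pooled EECs of a library (CPM). The intervals given are exact 95% intervals (Poisson for a level, conditional binomial for a ratio of levels, Clopper-Pearson for a share), and all of them cover counting error only. A ratio against 0 UMIs is a bound computed with 3 counts over the pooled library in place of 0.

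The deposited libraries held 85525811 UMIs in the KO, 64355665 in the rescue and 58433966 in the control. Median mitochondrial shares of the deposited barcodes were 22.7% in the KO, 14.2% in the rescue and 52.3% in the control, and the 20% limit removed more of the control than of the others. The KO and control libraries shared 11 deposited barcode sequences, rescue and control 3, and rescue and KO 6. No EEC barcode was shared among the EECs of another library. The X-inactivation transcript Xist was at 1057 CPM in KO EECs and 1121 in rescue EECs, against 1.23 in control EECs, and the Y-linked Ddx3y was at 0 in KO and rescue EECs, against 85.0 CPM in control EECs. Sex and genotype therefore cannot be told apart in any comparison with the control. The KO and control tables were written by 1 version of the counting software and the rescue by a later one, and what this did to the values was not tested.

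The targeted gene was lower in KO EECs by less than 2-fold. Cdc42 had 90 UMIs in KO EECs (261 CPM), 185 in rescue EECs (319 CPM) and 288 in control EECs (355 CPM), and UMIs were present in 20 of 27 KO, 19 of 19 rescue and 41 of 44 control cells. The KO level was 0.737 times the control level (0.575 to 0.937), and the rescue level 0.901 times (0.745 to 1.09). In the other Ptprc-free barcodes Cdc42 was at 387 CPM in the KO, 394 in the rescue and 247 in the control. A 3′ UMI can come from a transcript whose floxed exon was removed, so these counts do not check the deletion. Yap1 had 3, 14 and 13 UMIs in KO, rescue and control EECs, and Wwtr1, which encodes TAZ, had 0, 2 and 2, too few to compare.

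The cells carried the genes that the label EEC calls for. The cells were selected on Chga and Chgb UMIs in the same libraries, so these genes are only described. Both are among the 26 general EEC markers, and their part in the counts below was set by the selection. Of 26 general EEC markers, those at least 2-fold above the other Ptprc-free barcodes of the same library numbered 23 of 24 tested in the KO, 26 of 26 in the rescue and 26 of 26 in the control, where 29.8%, 22.7% and 29.1% of all tested genes were at least 2-fold higher. The genes standing highest over the other barcodes in every library included Tph1, Tac1, Gcg and Gip, the neuronal sodium channel gene Scn3a, the vesicle GTPase gene Rab3c, the irritant-gated channel gene Trpa1, the granin Scg2 and the vesicle fusion gene Snap25. Trpa1 was at 189 CPM in KO EECs, 162 in rescue EECs and 278 in control EECs, and Afp, which encodes alpha-fetoprotein, at 256, 304 and 595 CPM in that order. Without the 3 deepest rescue cells described below, they were at 351 and 680 CPM in the rescue.

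Markers of blood cells were low in the pools. Summed T cell markers reached 11.6 CPM in KO, 72.5 in rescue and 103 in control EECs, and myeloid and mast cell markers 29.0, 24.2 and 59.1. B and plasma cell markers summed to 26.1 CPM in KO, 390 in rescue and 22.2 in control EECs, and in the rescue to 104 CPM without the 3 deepest cells. Markers of other epithelial cells were present. The goblet list summed to 41180 CPM in KO, 1675 in rescue and 1441 in control EECs, and the enterocyte list to 7172, 2578 and 1435. The Paneth list summed to 706, 408 and 1894 CPM in the EECs, beside 1206, 23646 and 134974 in the other Ptprc-free barcodes of the KO, rescue and control. The part of these cells' RNA in the results was not tested.

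The EECs of the 3 genotypes were not equally deep. Median UMIs per cell were 10004 in the KO (1422 to 52429), 18608 in the rescue (2350 to 159276) and 18600 in the control (1424 to 48723), and 11 KO, 1 rescue and 2 control cells had fewer than 5000. The pooled EECs held 344390 UMIs in the KO, 579088 in the rescue and 811877 in the control. Median mitochondrial shares were close, at 9.02%, 6.74% and 6.88%. By simulated doublets at a fixed rate, 33 KO, 29 rescue and 20 control barcodes would be removed as doublets, none of them an EEC, so that none was removed for this reason.

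Some cells stood apart. In the rescue, 1 cell had 159276 UMIs, 27.5% of the pool, with a granin share of 0.319%, 58 UMIs of the proliferation gene Mki67 and no hormone above the limit used here. With the cells of 80822 and 80031 UMIs it made up 55.3% of the rescue pool. Without these 3 the rescue had 16 cells and 258959 UMIs, and genes of EECs were for the most part higher in these 16 than in all 19. Rescue values are over the 19 cells unless said otherwise. For most levels that change by over 1.5 times the value over the 16 cells follows. It is not given for the pools by leading hormone and for some genes and lists with few UMIs. In the KO, 1 cell had 52429 UMIs, 15.2% of the pool, a granin share of 0.120% and 633 UMIs of the goblet mucin gene Muc2, which was 88.4% of all Muc2 UMIs in KO EECs. A further KO cell had 67 Muc2 UMIs. Without both, the KO had 25 cells and 281556 UMIs.

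The granin share that chose the cells had a median of 2.02% in the KO, 4.38% in the rescue and 4.80% in the control. Just inside the 0.1% limit the lowest cells were at 0.120%, 0.117% and 0.165%, and 4 KO, 3 rescue and 4 control cells were under 0.5%. Just outside, the highest kept barcodes without Ptprc reached 0.0865%, 0.0898% and 0.0968%. Summed Chga and Chgb were at 4.39, 15.4 and 15.6 CPM in the other Ptprc-free barcodes and at 5.64, 10.7 and 72.3 CPM in Ptprc-positive barcodes of the KO, rescue and control.

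**Figure D1:**
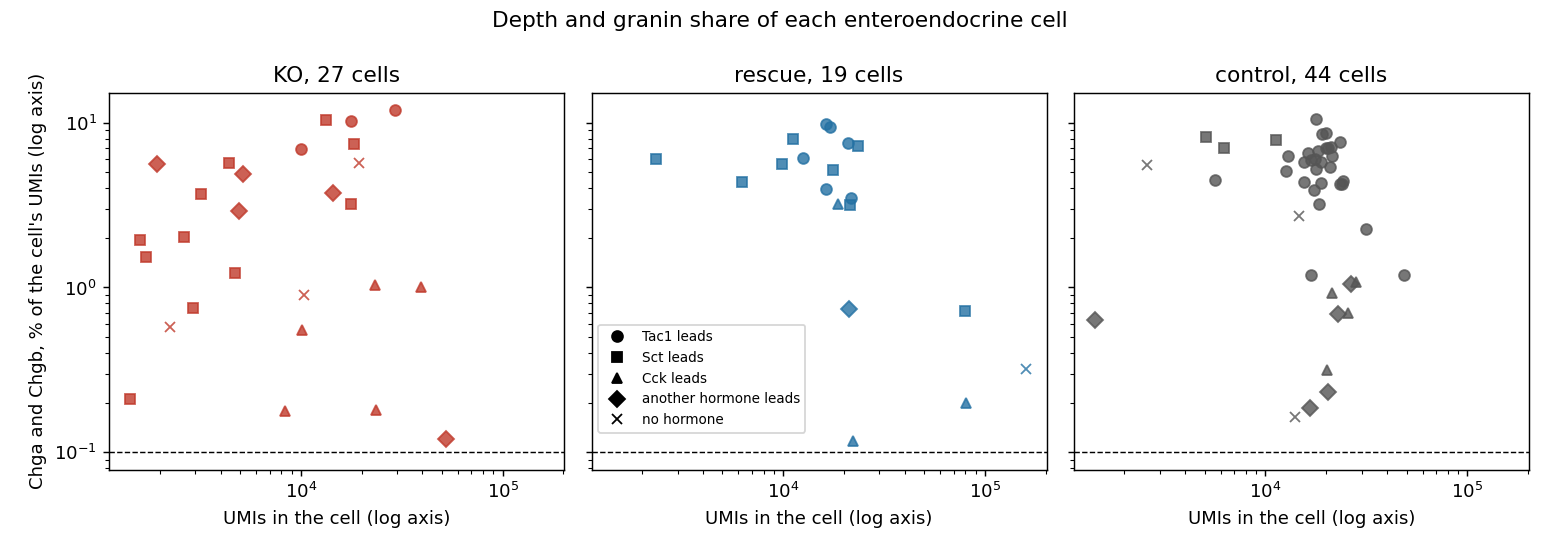
Each point is 1 enteroendocrine cell, with its UMIs on a log x axis and the share of its UMIs from Chga and Chgb in percent on a log y axis, in panels for the KO, rescue and control; the symbol gives the hormone gene with the most UMIs and the dashed line the 0.1% limit. Shallow cells are more frequent in the KO, with 11 of 27 under 5000 UMIs, and 3 rescue cells lie to the right of 60000 UMIs.

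The first question was how frequent EECs were. They made up 1.59% of kept Ptprc-free barcodes in the KO (1.05% to 2.31%), 1.90% in the rescue (1.15% to 2.95%) and 7.15% in the control (5.25% to 9.49%), so that the KO and rescue intervals overlapped each other and lay below that of the control. The size of the gap depended on the denominator. Of all kept barcodes, blood cells included, EECs were 1.33% in the KO, 1.00% in the rescue and 2.76% in the control. Of all deposited barcodes, with only the granin limit applied, they were 0.710% in the KO (0.492% to 0.991%), 0.696% in the rescue (0.446% to 1.03%) and 1.06% in the control (0.816% to 1.34%), and the intervals overlapped. With the mitochondrial limit at 10% the shares were 1.68%, 4.08% and 14.4%. With no such limit they were 0.923% in the KO, 1.22% in the rescue and 1.67% in the control. The barcodes that the 20% limit removed included 4 in the KO, 4 in the rescue and 13 in the control that met the granin limit.

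**Figure D2:**
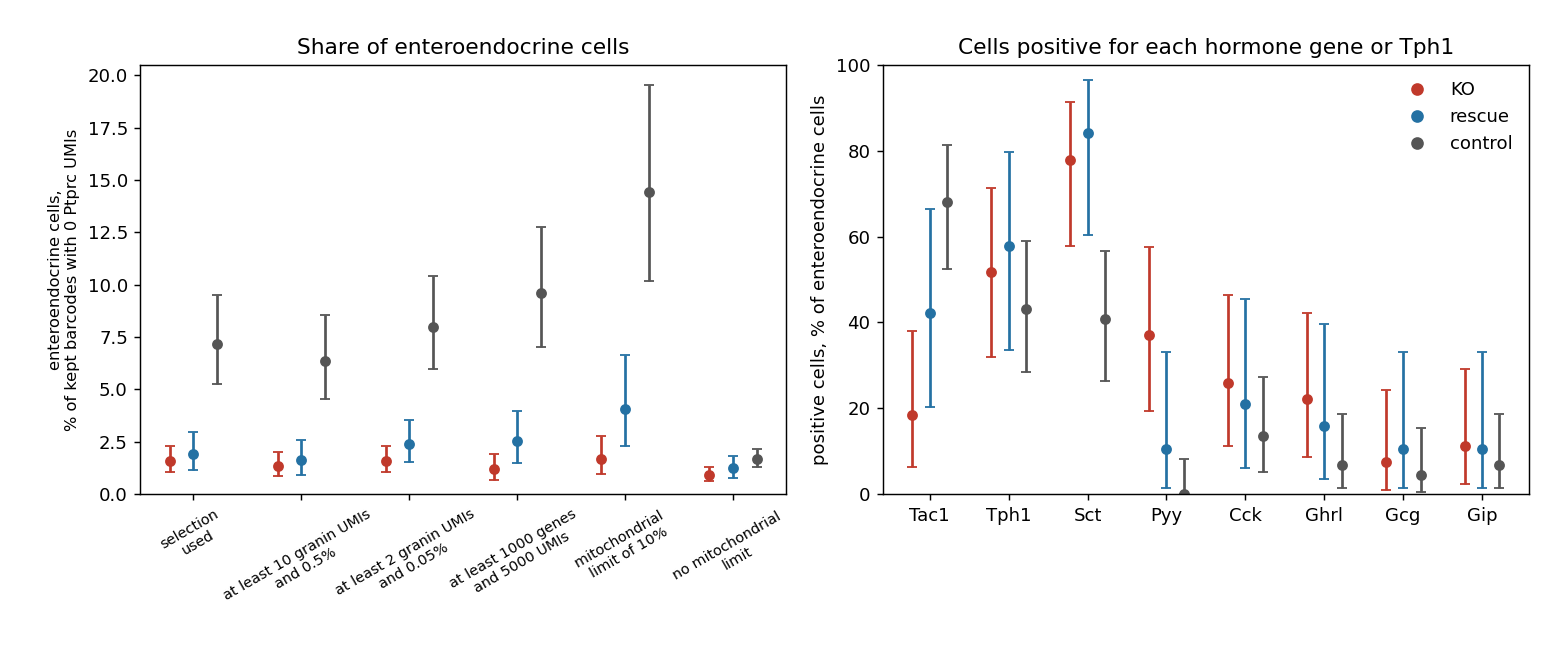
Left, enteroendocrine cells as a percentage of kept barcodes without Ptprc in the KO, rescue and control under the selection used and 5 other selections; right, the percentage of enteroendocrine cells positive for each hormone gene or Tph1; bars are exact 95% intervals for counting error. The control lies above the KO under each selection shown, and the gap is narrowest with no mitochondrial limit, at 0.923% in the KO against 1.67% in the control.

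Among the EECs, secretin-positive cells made up a larger share in the KO and rescue than in the control, and Tac1-positive cells a smaller share in the KO, while for Tac1 the rescue and control intervals overlapped. A cell was called positive for a gene at 3 or more UMIs making up at least 0.1% of its UMIs. By the hormone gene with the most UMIs, KO cells were led by Sct in 11, Cck in 5, Pyy in 3, Tac1 in 3, Gip in 1 and Iapp in 1, with 3 cells positive for none. Rescue cells were led by Sct in 8, Tac1 in 6, Cck in 3 and Gip in 1, with 1 positive for none. Control cells were led by Tac1 in 29, Cck in 4, Sct in 3, Gip in 3 and Ghrl in 2, with 3 positive for none. The control was thus mostly Tac1-led, and the KO and rescue were led by Sct more often than by any other hormone.

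**Figure D3:**
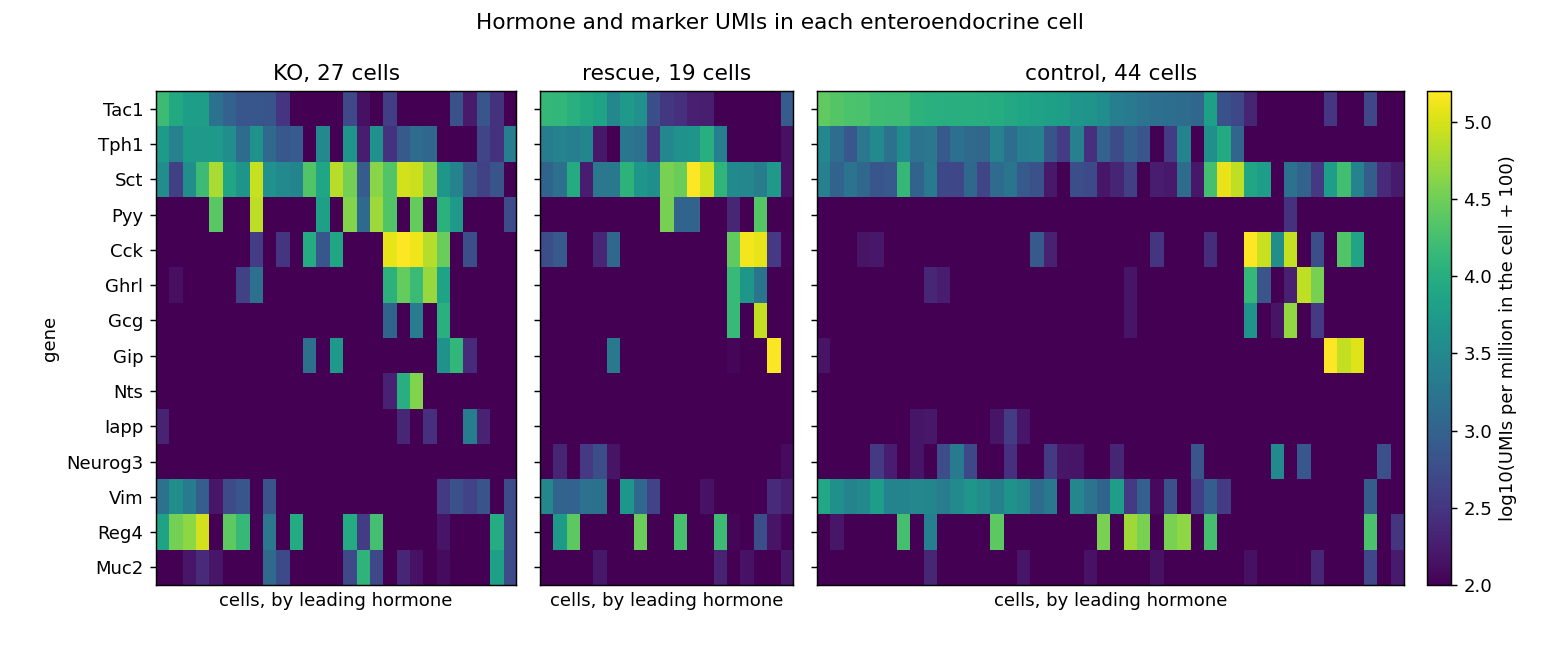
Each column is 1 enteroendocrine cell and each row a gene, in panels for the KO, rescue and control, with cells ordered by leading hormone; the colour is log10 of 100 plus the gene's UMIs per 1000000 UMIs of the cell. Tac1, Tph1 and Vim run together over most control cells, Sct runs over cells of every class, and Pyy is seen in 10 positive KO cells, 2 rescue cells and no control cell.

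Secretin stimulates bicarbonate and water secretion from the pancreas. Sct was at 23015 CPM in KO EECs, 14614 in rescue EECs and 3943 in control EECs, and positive cells were 21 of 27, 16 of 19 and 18 of 44. The KO level was 5.84 times the control level (5.60 to 6.08) and the rescue level 3.71 times (3.56 to 3.86). Without the 3 deepest cells the rescue was at 30441 CPM. Medians over cells kept this order, at 4858, 3874 and 743 CPM, and without the 3 deepest cells the rescue stood above the KO. Of cells thinned to 2000 UMIs each, 82.6% in the KO, 89.5% in the rescue and 65.1% in the control had a Sct UMI. In Ptprc-positive barcodes, which should lack Sct, that thinned share was 3.04%, 1.46% and 1.67%. Those barcodes had median depths of 5492, 5153 and 5242.5 UMIs, and 4 KO and 1 control EEC were too shallow to be thinned.

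Tac1 encodes substance P and neurokinin A. It was at 1928 CPM in KO EECs, 2014 in rescue EECs and 6265 in control EECs, with 5 of 27, 8 of 19 and 30 of 44 cells positive. The control was 3.25 times the KO (3.00 to 3.53). Without the 3 deepest cells the rescue was at 3889 CPM. At 2000 UMIs per cell, 47.8% of KO, 52.6% of rescue and 74.4% of control cells had a Tac1 UMI, against 0%, 0.112% and 1.04% of Ptprc-positive barcodes. The intervals of the EEC shares, 26.8% to 69.4%, 28.9% to 75.6% and 58.8% to 86.5%, overlapped. Unthinned, 17 of 27 KO, 14 of 19 rescue and 35 of 44 control cells had a Tac1 UMI, and their median level was 621 CPM in the KO, 3489 in the rescue and 6401 in the control. Both the share of cells with a Tac1 UMI and the median level over such cells were thus lowest in the KO. The KO and rescue shares were close at equal depth. That median takes in cells with as few as 1 Tac1 UMI, and only 5 of the 17 KO cells were positive. It is therefore not the level in Tac1-led cells. The 3 Tac1-led KO cells had 109 Tac1 UMIs of 17682, 252 of 29129 and 155 of 10004.

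Peptide YY slows gut transit and is known mainly from the ileum and colon. Pyy had 3627 UMIs in KO EECs (10532 CPM), 1081 in rescue EECs (1867 CPM) and 4 in control EECs (4.93 CPM). Over the 16 rescue cells it was at 4136 CPM. Positive cells were 10 of 27 in the KO, 2 of 19 in the rescue and 0 of 44 in the control. Thinned to 2000 UMIs, 39.1% of KO and 26.3% of rescue cells had a Pyy UMI, against none of 43 control cells, which allows a share of up to 6.98% when 3 cells are set in place of 0. Unthinned, 11 KO, 5 rescue and 1 control cell had a Pyy UMI. The thinned share in Ptprc-positive barcodes was 0.304%, 0.112% and 0%. Of the Pyy-positive cells, 9 in the KO and 2 in the rescue were also Sct-positive.

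Neurotensin, another distal gut hormone, was seen in the KO alone and there in few cells. Nts had 985 UMIs in KO EECs (2860 CPM) and none in rescue or control EECs, and 91.4% of the KO UMIs came from 1 cell, so that the ratio of at least 774 to the control rests on that cell. Gip, the incretin of the proximal intestine, was at 621 CPM in KO, 5579 in rescue and 9690 in control EECs. It was lower in the KO, where the control was 15.6 times higher (13.6 to 17.9), but Gip-positive cells numbered only 3, 2 and 3, so that single cells set these levels. In the rescue without its 3 deepest cells, Gip was at 12473 CPM, above the control. Iapp, which encodes amylin, was at 110, 0 and 12.3 CPM, with 1 positive cell in the KO.

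Cholecystokinin releases bile and pancreatic enzymes. Cck was at 24371 CPM in KO EECs, 12988 in rescue EECs and 11052 in control EECs, in 7, 4 and 6 positive cells (20872 CPM over the 16 rescue cells). The KO level was 2.21 times the control level (2.14 to 2.27). The shares of Cck-positive cells overlapped, at 11.1% to 46.3% in the KO and 5.17% to 27.4% in the control. Ghrl, the ghrelin gene, was at 6368, 2207 and 3092 CPM in 6, 3 and 3 positive cells. Single cells weighed on both genes: 1 KO cell had 3059 Cck UMIs and 1 control cell 4426. For Ghrl, 1 KO cell had 1188 UMIs and 1 control cell 1568. Gcg, the precursor of GLP-1, was at 1394, 4609 and 1415 CPM in 2 cells of each library, and without the 3 deepest cells Ghrl in the rescue was at 529 CPM. Sst, Gal, Insl5, Vip, Penk and Npw were positive in no cell of any library.

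Tph1-positive cells, the enterochromaffin cells by this gene, were 14 of 27 KO cells (51.9%, 31.9% to 71.3%), 11 of 19 rescue cells (57.9%, 33.5% to 79.7%) and 19 of 44 control cells (43.2%). The 3 intervals overlapped. The other hormones in these cells differed in number between libraries. Tac1 was positive in 5 of 14 Tph1-positive KO cells, 6 of 11 in the rescue and 18 of 19 in the control. Tph1 and Sct together were positive in 12 KO, 9 rescue and 10 control cells. Tph1 and Pyy were positive together in 6 KO and 1 rescue cell and in no control cell, and Tph1 with Cck in 2 KO cells and in none of the other libraries.

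Most EECs were positive for a hormone, and many for more than 1. At least 1 hormone was positive in 24 KO, 18 rescue and 41 control cells, at least 2 in 16, 11 and 16, and at least 3 in 9, 4 and 4. Cck and Sct were positive together in 7 KO, 4 rescue and 5 control cells, so that nearly every Cck cell also carried Sct. Cck and Ghrl were positive together in 5, 3 and 1 cells. Cck and Tac1, which mark different EEC branches, were positive together in 0 KO cells, 1 rescue cell and 0 control cells.

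Pooled by leading hormone, the classes differed in the levels of several genes. Vim, which encodes the filament protein vimentin, was at 2781 CPM in KO, 1193 in rescue and 2522 in control Tac1-led cells, beside 236, 267 and 354 CPM in Sct-led cells and 95.6, 0 and 0 CPM in Cck-led cells. Trpa1 was at 792, 706 and 390 CPM in Tac1-led cells and at 0, 24.7 and 0 CPM in Cck-led cells. Lmx1a, a factor of enterochromaffin cells, was at 282, 200 and 188 CPM in Tac1-led cells at 139, 157 and 266 CPM in Sct-led cells, and had no UMI in Cck-led cells of any library. Etv1 ran the other way, at 0, 19.1 and 0 CPM in Tac1-led cells, at 55.5, 0 and 0 CPM in Sct-led cells and at 287, 230 and 241 CPM in Cck-led cells. Onecut3, a further homeodomain factor, was at 296, 140 and 273 CPM in Cck-led cells, at 83.3, 5.80 and 222 CPM in Sct-led cells and at 123, 0 and 1.74 CPM in Tac1-led cells. Each class held between 3 and 11 cells in the KO and rescue. The control had 3 Sct-led and 4 Cck-led cells, and only its Tac1-led class, with 29, was larger. The class levels are thus mostly descriptions of few cells. In the rescue, the Cck-led cells included the cell of 80822 UMIs and the Sct-led cells that of 80031 UMIs. Class levels without these were not taken. All 18 Onecut3 UMIs of rescue EECs lay outside the 3 deepest cells, so its Cck-led level there is lowered by the deep cell.

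Of 5967 genes with at least 20 UMIs in the KO or control EEC pool, 24.3% were at least 2-fold apart. In the KO 307 genes (5.14%) were at least 2-fold higher and 1140 (19.1%) lower, and the median log2 ratio of all tested genes was -0.35. Here and below log2 ratios carry a pseudocount of 1 CPM. Higher genes were 21.2% of the genes at least 2-fold apart, and 46.0% after scaling to a median of 0. Of 9 tested hormone genes 6 were at least 2-fold higher in KO EECs and 2, Gip and Tac1, lower, with a median log2 ratio of 1.14. Gene lists are read against these backgrounds, and with 1 library per genotype a count of genes past 2-fold is a description.

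Transcription factors of the EEC lineage were mostly lower in KO EECs, with Neurog3 the lowest of them. Of 23 tested, 2 were at least 2-fold higher and 11 at least 2-fold lower, with a median log2 ratio of -0.80 beside -0.35 for all genes. With the scaling to a median of 0 the list's median was -0.45, and among EECs of at least 5000 UMIs -1.20. In the other Ptprc-free barcodes, where these genes are rare, 0 of 19 were higher and 18 lower, with a median of -1.92, beside 12.2% higher, 22.3% lower and a median of -0.21 among all 12751 genes tested there.

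Neurog3, the factor that starts the EEC programme, had 0 UMIs in 27 KO cells, 18 UMIs in 5 of 19 rescue cells (31.1 CPM) and 179 UMIs in 15 of 44 control cells (220 CPM). The KO level was at least 25.3-fold below that of the control, and the rescue 7.09 times lower (4.36 to 12.2), or 4.08 times over the 16 cells. Among the control cells, 1 had 65 and another 49 UMIs, and the other 65 UMIs were 80.1 CPM of the pool. At 2000 UMIs per cell, 0% of KO, 10.5% of rescue and 20.9% of control cells had a Neurog3 UMI. None of 23 thinned KO cells allows a share of up to 13.0% when 3 cells are set in place of 0, and the exact interval reaches 14.8%. In Ptprc-positive barcodes the thinned shares were 0%, 0% and 0.418%. Among the other Ptprc-free barcodes, cells with Neurog3 were 3 of 1670 in the KO (0.180%), 4 of 980 in the rescue (0.408%) and 16 of 571 in the control (2.80%). These cells held 85 Neurog3 UMIs in the KO, 54 in the rescue and 647 in the control, so cells with Neurog3 were present in the KO outside the EECs. Over all other Ptprc-free barcodes Neurog3 was at 1.38 CPM in the KO, 1.34 in the rescue and 36.0 in the control. The KO and rescue were thus both far below the control. The KO and rescue intervals of the share, 0.0371% to 0.524% and 0.111% to 1.04%, overlapped.

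Neurod2, a related factor, followed the same order, with 0 CPM in KO EECs, 27.6 CPM in 7 rescue cells and 88.7 CPM in 27 control cells, at least 10.2-fold lower in KO than in control EECs. Neurod1, which acts downstream of Neurog3 and persists in mature EECs, was at 546, 556 and 616 CPM, and the KO level was 0.886 times that of the control (0.746 to 1.05). Over the 16 rescue cells Neurod1 was at 1108 CPM and Neurod2 at 42.5 CPM.

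Insm1, a zinc-finger factor of endocrine differentiation, was at 154 CPM in KO EECs (14 of 27 cells with a UMI), 313 in rescue EECs (18 of 19) and 512 in control EECs (42 of 44), and the control was 3.33 times the KO (2.50 to 4.52). Nkx2-2, a homeodomain factor needed for several EEC types, was at 66.8, 133 and 325 CPM in 11, 17 and 43 cells, and the control was 4.87 times the KO (3.18 to 7.82). Thinned to 2000 UMIs, Nkx2-2 was seen in 0% of KO, 31.6% of rescue and 51.2% of control cells, and Insm1 in 26.1%, 52.6% and 65.1%, so both gaps were present at equal depth. Fev, a factor of serotonin cells, was at 78.4, 166 and 251 CPM, and Rfx6 at 43.6, 114 and 155 CPM. With the 3 deepest rescue cells left out, Insm1 there was at 572 CPM, Nkx2-2 at 243, Fev at 263 and Rfx6 at 212, so that the rescue no longer lay between the KO and the control for Insm1, Fev and Rfx6. St18 (29.0, 39.7 and 139 CPM), Rfx3 (23.2, 51.8 and 98.5 CPM), Tox3 (61.0, 79.4 and 200 CPM) and Pax4 (31.9, 34.5 and 99.8 CPM) were each over 3-fold lower in KO than in control EECs. In the 16 rescue cells St18 was at 81.1 CPM, Rfx3 at 108 and Pax4 at 69.5.

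Not all EEC factors were lower. Etv1 was at 98.7 CPM in KO EECs, 51.8 in rescue EECs and 29.6 in control EECs, 3.34 times higher in the KO than in the control (1.92 to 5.89). Onecut3 was at 139, 31.1 and 39.4 CPM, 3.54 times higher in the KO (2.21 to 5.72). Both factors stood highest in the Cck-led cells. Sox4, an early progenitor factor, was at 636, 309 and 510 CPM, Isl1 at 119, 111 and 208 CPM and Foxa1 at 134, 98.4 and 73.9 CPM, each less than 2-fold apart between KO and control. Over the 16 rescue cells Onecut3 was at 69.5 CPM, Sox4 at 490, Isl1 at 185 and Foxa1 at 189.

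**Figure D4:**
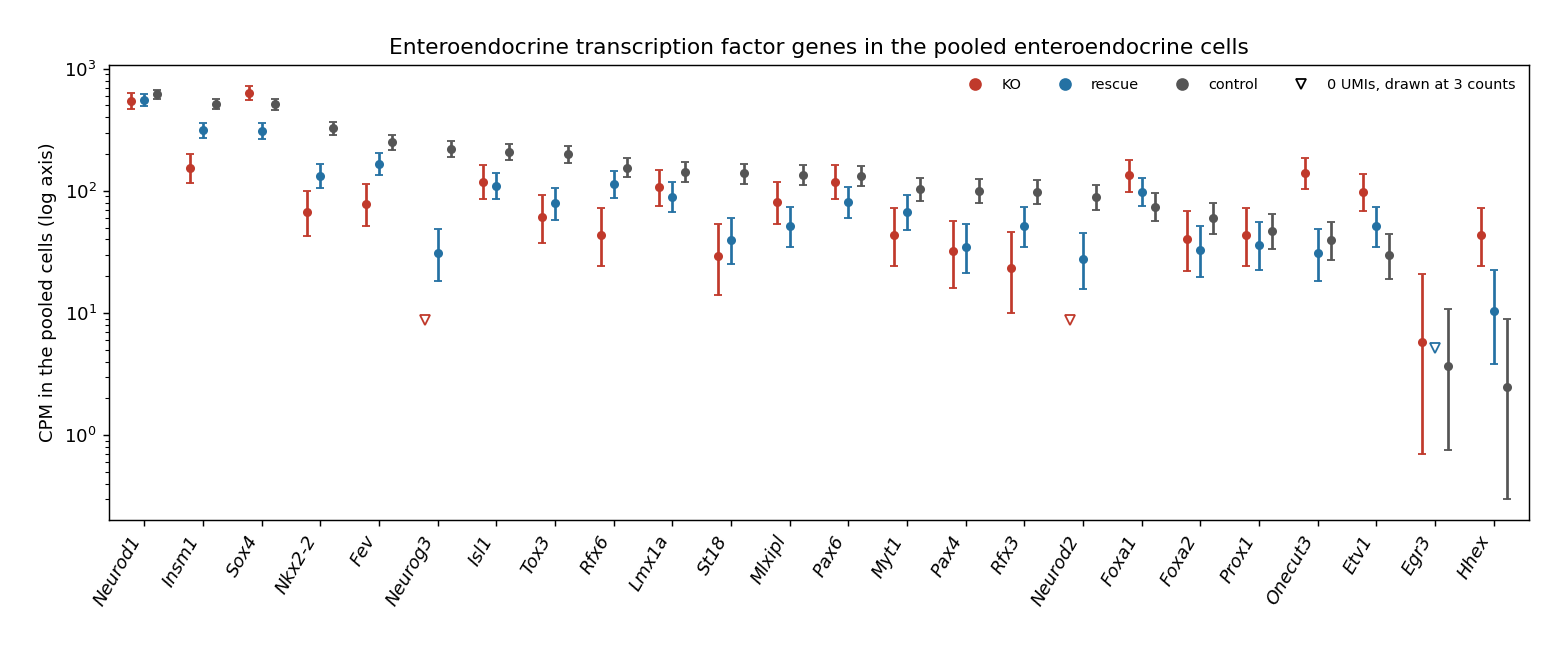
Level in CPM on a log axis, with its exact 95% Poisson interval, of 24 enteroendocrine transcription factors in pooled enteroendocrine cells of the KO, rescue and control; an open triangle marks 0 UMIs, drawn at 3 counts. Neurog3 and Neurod2 have no UMI in the KO, Insm1 and Nkx2-2 increase in the order KO, rescue, control over all cells (Insm1 does not without the 3 deepest rescue cells), and Neurod1 lies at 546 to 616 CPM.

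The list was also taken within smaller sets of cells. Among cells without a Neurog3 UMI, 2 of 22 tested factors were higher and 11 lower in the KO, with a median log2 ratio of -0.88, beside 5.94% higher and 16.7% lower among all 4560 genes tested there. Among Tph1-positive cells the median was -1.09. Within Tac1-led cells Insm1 was at 158 CPM in the KO, 430 in the rescue and 482 in the control, Nkx2-2 at 229, 344 and 329 CPM, Fev at 70.4, 391 and 289 CPM and Neurog3 at 0, 134 and 163 CPM. In the same cells other factors were higher in the KO than in the control, with Neurod1 at 686, 1250 and 506 CPM, Lmx1a at 282, 200 and 188 CPM and Foxa1 at 141, 162 and 83.5 CPM. Within Sct-led cells Insm1 was at 319, 424 and 354 CPM. These classes hold few KO cells, and the direction differed from factor to factor. The Sct-led rescue cells included the cell of 80031 UMIs. Per cell, the median number of factors seen at 2000 UMIs was 3 in the KO, 5 in the rescue and 6 in the control, while the median summed level was 3148, 4137 and 3858 CPM.

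Promoters of the genes on which these results turn are printed so that the elements that basic helix-loop-helix factors bind can be seen. They are the 250 bases before the RefSeq start of each gene (build GRCm38.p6, strand given), with each E-box, CANNTG (its own reverse complement), in capitals. Neurog3 and Neurod2 are the factors without a UMI in KO EECs, and Sct and Tac1 are the hormone genes that led the KO and the control.
Neurog3 (chr10:62132840-62133089, plus strand): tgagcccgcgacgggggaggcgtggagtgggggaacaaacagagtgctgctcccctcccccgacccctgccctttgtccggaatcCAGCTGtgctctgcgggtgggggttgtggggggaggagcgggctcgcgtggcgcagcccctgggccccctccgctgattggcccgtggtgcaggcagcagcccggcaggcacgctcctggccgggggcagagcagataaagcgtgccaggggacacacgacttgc
Neurod2 (chr11:98329646-98329895, minus strand): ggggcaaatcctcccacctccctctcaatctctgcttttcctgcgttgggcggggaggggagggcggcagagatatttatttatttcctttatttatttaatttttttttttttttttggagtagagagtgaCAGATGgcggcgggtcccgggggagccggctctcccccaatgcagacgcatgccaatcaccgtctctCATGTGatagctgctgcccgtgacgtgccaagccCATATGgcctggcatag
Sct (chr7:141279134-141279383, minus strand): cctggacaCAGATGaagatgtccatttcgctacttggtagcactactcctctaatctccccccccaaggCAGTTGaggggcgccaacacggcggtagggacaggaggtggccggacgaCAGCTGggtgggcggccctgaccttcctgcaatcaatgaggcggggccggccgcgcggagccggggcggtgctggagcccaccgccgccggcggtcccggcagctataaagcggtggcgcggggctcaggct
Tac1 (chr6:7554811-7555060, plus strand): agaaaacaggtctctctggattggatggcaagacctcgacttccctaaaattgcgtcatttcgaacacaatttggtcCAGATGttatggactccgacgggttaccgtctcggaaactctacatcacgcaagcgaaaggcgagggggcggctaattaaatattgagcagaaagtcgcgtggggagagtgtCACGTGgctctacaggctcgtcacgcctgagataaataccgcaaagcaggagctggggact

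The Neurog3 window held 1 E-box, of the form CAGCTG, and the Neurod2 window 3, of which 1 was CAGATG, the form that neurogenic factors bind. The Sct window held 3 and the Tac1 window 2, with 1 CAGATG in each. E-boxes are common: 66.2% of 32851 promoters of the same kind held CANNTG, 14.4% CAGATG and 13.0% CAGCTG, both strands searched. Of 27 promoters of the 19 EEC factors found in the table, 17 held CANNTG (63.0%), 4 CAGATG and 5 CAGCTG, near these backgrounds. A match describes letters and is no evidence of binding.

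Of 6 genes of the granin list that did not choose the cells, 2 were at least 2-fold higher and 1 lower in KO than in control EECs, with a median log2 ratio of 0.20. Scg2, secretogranin II, was at 787 CPM in KO, 444 in rescue and 171 in control EECs, 4.60 times higher in the KO (3.73 to 5.68), and Pcsk1n, an inhibitor of prohormone convertase 1, at 717, 309 and 195 CPM. Chga and Chgb, which chose the cells, were at 5912, 3832 and 5162 CPM and at 31598, 20486 and 36273 CPM. Scgn, the calcium sensor secretagogin, was lower, at 72.6, 60.4 and 163 CPM. Among 6 tested prohormone-processing genes 2 were higher and 0 lower, with a median of 0.28: Qpct, a glutaminyl cyclase, was at 142, 44.9 and 44.3 CPM, whereas the convertase Pcsk1 was at 372, 273 and 395 CPM and the carboxypeptidase Cpe at 1101, 597 and 1080 CPM. Leaving out the 3 deepest cells, Scg2 in the rescue was at 896 CPM, Pcsk1n at 656, Chga at 8337, Chgb at 41227, Scgn at 96.5, Pcsk1 at 548, Cpe at 1081 and Qpct at 85.0.

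Of 21 tested vesicle and exocytosis genes, 4 were higher and 3 lower in the KO, with a median of 0.10. Ptprn, a dense-core vesicle membrane protein, was at 354 CPM in KO, 67.4 in rescue and 50.5 in control EECs, 7.01 times higher in the KO than in the control (4.89 to 10.3). Syt7, a calcium sensor for fusion, was at 311, 131 and 54.2 CPM. Ptprn2, the paralog of Ptprn, was at 116, 91.5 and 267 CPM and Rph3al, a Rab effector, at 52.3, 62.2 and 172 CPM, so that related vesicle genes stood on opposite sides. Over the 16 rescue cells Ptprn was at 147 CPM, Syt7 at 278 and Ptprn2 at 158. None of 5 tested sensing receptors and channels was 2-fold apart, with a median of -0.39.

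Genes of serotonin cells stood on both sides of the control. Of 10 tested, 0 were higher and 3 lower in the KO, with a median log2 ratio of -0.52. Tph1 itself was at 1803 CPM in KO EECs, 1129 in rescue EECs and 1070 in control EECs, 1.68 times higher in the KO (1.52 to 1.87), and the lectin gene Reg4 at 10433, 2020 and 5400 CPM. The decarboxylase Ddc was at 575, 439 and 847 CPM. Of the vesicular monoamine transporters, Slc18a1 was at 331, 233 and 184 CPM and Slc18a2 at 43.6, 22.5 and 117 CPM. In the rescue without its 3 deepest cells, Tph1 was at 2441 CPM, above the KO, Reg4 at 4510, Ddc at 811, Slc18a1 at 510 and Slc18a2 at 50.2. In Tph1-positive cells alone the log2 ratio of Slc18a2 between KO and control was 0.38, so its lower level held for all EECs but not for that class.

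The 10 genes highest and the 10 lowest in the KO against the control were taken by a rule of size. The highest were the hormones Nts and Pyy, the goblet genes Zg16, Clca1 and Muc2, and Cybrd1, Anxa10, Capg, Gsta4 and Stmn2. Zg16, a goblet granule lectin, was at 13328 CPM in KO, 41.4 in rescue and 38.2 in control EECs, Clca1 at 1980, 1.73 and 7.39 CPM and Muc2 at 2079, 22.5 and 13.6 CPM. Of the KO's Zg16 UMIs 96.7% came from the deepest KO cell, and without the 2 Muc2-positive cells the log2 ratios of Zg16, Muc2 and Clca1 were 3.37, 1.99 and 1.62, against 8.41, 7.16 and 7.88 with them. All 8 tested goblet markers were at least 2-fold higher in the KO, with a median of 5.29. Without the 2 cells 4 of 5 were, with a median of 2.04, beside 4.51% of all genes.

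Several of the remaining high genes were also high in the other barcodes of the KO library. Cybrd1, a ferric reductase, was at 160 CPM in KO, 3.45 in rescue and 0 in control EECs, beside 816, 0.92 and 1.78 CPM in the other Ptprc-free barcodes. Anxa10, an annexin, was at 134, 0 and 0 CPM, Capg, an actin-capping protein, at 131, 10.4 and 0 CPM and the glutathione transferase Gsta4 at 430, 12.1 and 2.46 CPM. Stmn2, at 92.9 CPM in the KO and 0 in the others, came from 2 cells. Of 12 tested genes of the regenerative list, 10 were at least 2-fold higher and 1 lower in KO EECs, with a median log2 ratio of 2.34, and in the other Ptprc-free barcodes 21 of 23 were higher with a median of 3.12, beside 12.2% of all genes. S100a6 was at 3026, 256 and 70.2 CPM in EECs and at 5088, 90.0 and 63.7 CPM in the other barcodes. Anxa2 was at 665, 104 and 64.0 CPM and the keratin gene Krt19 at 2186, 1147 and 597 CPM, while Cldn4, a claudin gene of the same list, was lower in the KO, at 366, 264 and 1075 CPM. Over the 16 rescue cells S100a6 was at 564 CPM and Cldn4 at 517. Without the 2 Muc2-positive cells 8 of 10 tested genes of the list were higher, with a median of 2.05. The genes are also those of the KO epithelium at large, and the part of free RNA from it was not tested.

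The lowest genes in the KO were Neurog3 and Neurod2, Gip, Rrad, Sfrp5, Vcan, Bex1, Lpl, Pappa2 and 2900060B14Rik. Rrad, a small GTPase that limits calcium channels, was at 0 CPM in KO and rescue EECs and 88.7 in control EECs. Sfrp5, a secreted Wnt antagonist, was at 0, 19.0 and 73.9 CPM, the proteoglycan gene Vcan at 0, 31.1 and 69.0 CPM, Bex1 at 0, 19.0 and 54.2 CPM, the lipase Lpl at 0, 0 and 50.5 CPM, and Pappa2, a protease of insulin-like growth factor binding proteins, at 2.90, 51.8 and 69.0 CPM. 2900060B14Rik was at 2.90, 17.3 and 55.4 CPM. Of genes high over the other barcodes, Hmgn3, a nucleosome-binding protein, was at 180, 285 and 838 CPM and Vim at 589, 325 and 1798 CPM, and Vim stood highest in the Tac1-led cells, of which the KO had 3 and the control 29. With the 3 deepest rescue cells left out, Sfrp5 there was at 30.9 CPM, Vcan at 65.6, Bex1 at 42.5, Pappa2 at 108, Hmgn3 at 452 and Vim at 568.

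**Figure D5:**
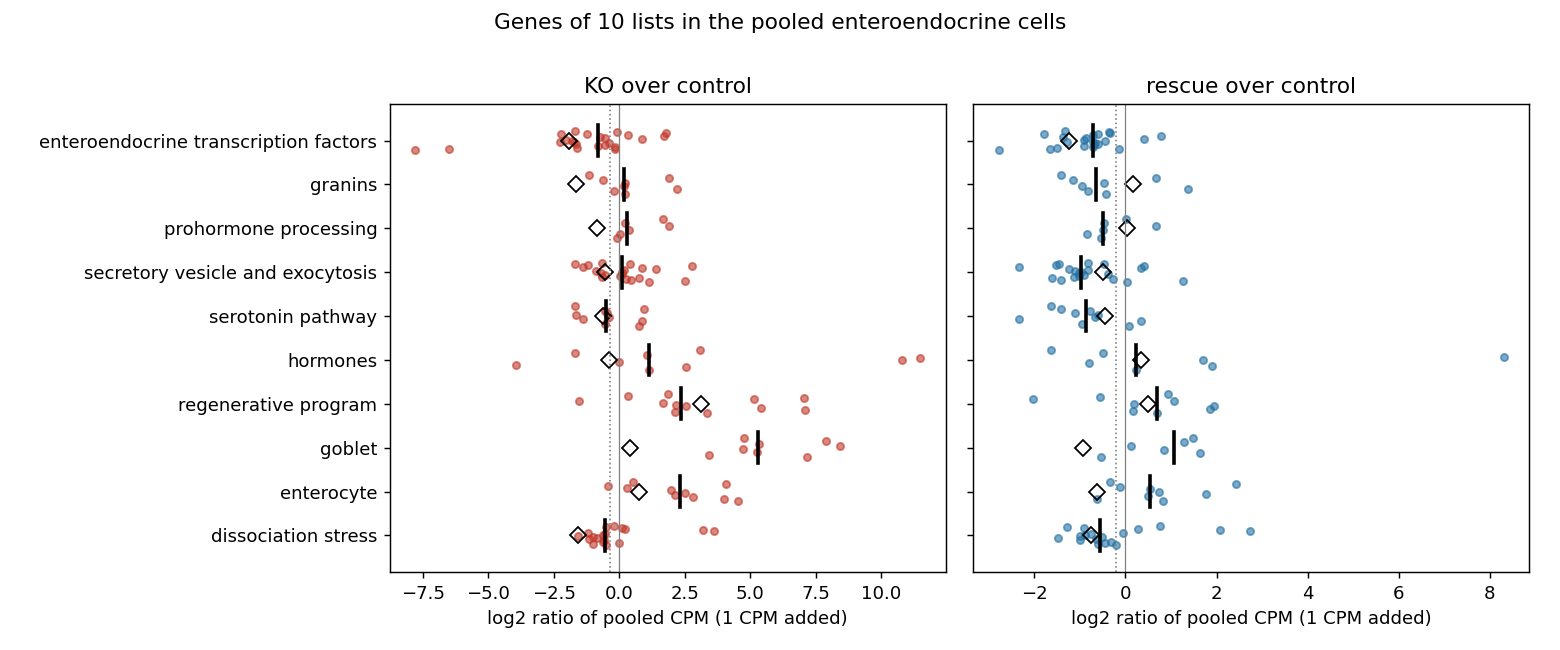
Log2 ratio of each tested gene of 10 gene lists in enteroendocrine cells, KO over control and rescue over control (pseudocount 1 CPM); black bars are list medians, open diamonds the list medians in the other Ptprc-free barcodes, and the dotted line the median of all tested genes. Transcription factors lie mostly below 0 in the KO, with a median of -0.80, and the goblet and regenerative lists above it, at 5.29 and 2.34; the granin list includes Chga and Chgb, on which the cells were selected.

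Other lists are given by their counts. Of 8 tested YAP and TAZ targets 2 were higher and 3 lower in KO than in control EECs (median -0.59), of 7 Notch and secretory fate genes 1 and 1 (0.07), of 18 dissociation stress genes 2 and 4 (-0.57), of 18 polarity genes and CDC42 partners 1 and 3 (-0.22) and of 8 regional identity genes 1 and 0 (0.18). F3, the tissue factor gene, was at 5.81 CPM in KO, 0 in rescue and 97.3 in control EECs and was the lowest of the YAP and TAZ targets. Of 7 tested Paneth genes 2 were higher and 4 lower (median -1.16), and of 10 enterocyte genes 7 and 0 (2.32, beside -0.35 for all genes). None of the tuft genes passed the limit of 20 UMIs.

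Rescue EECs were set against control EECs over 6155 tested genes, of which 20% were at least 2-fold apart, 410 higher (6.66%) and 822 lower (13.4%), with a median log2 ratio of -0.22. Higher genes were 33.3% of those apart and 53.6% after scaling to a median of 0. Without the 3 deepest rescue cells 202 were higher and 644 lower. Of 23 tested EEC factors 0 were higher and 7 lower, with a median of -0.71, but without the 3 cells 2 were higher and 3 lower and the median was 0.063, beside 3.42% and 10.9% of all genes, so the lower factors as a list rested on those cells.

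Among 7 tested hormone genes 3 were higher and 1 lower in the rescue than in control EECs, with a median of 0.23. Without the 3 deepest cells the rescue levels of Sct, Cck, Gip, Gcg, Pyy and Tac1 were higher and that of Ghrl lower. Gip was then at 12473 CPM, against 5579 in all 19 cells, Tac1 at 3889 against 2014 and Ghrl at 529 against 2207. Among the factors, Neurog3 and Neurod2 were over 2-fold below the control also without the 3 cells, and the following others were not. Neurog3 was then at 54.1 CPM in the rescue against 220 in the control, and Neurod2 at 42.5 against 88.7. Insm1 was at 572 CPM in the 16 rescue cells, against 512 in the control, and at 313 CPM in all 19. Nkx2-2 was at 243 CPM in the 16 cells, against 325, St18 at 81.1 against 139 and Fev at 263 against 251.

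For the machinery lists too the medians differed without the 3 cells. Of 21 tested vesicle genes 1 was higher and 11 lower in the rescue than in the control (median -0.99), and the median was -0.081 without the 3 cells. The 6 granin genes outside the selection had 1 higher and 2 lower (median -0.72, and 0.29 without the cells), and the serotonin list 0 higher and 4 lower of 10 (median -0.86, and near 0 without them). None of 6 prohormone-processing genes was 2-fold apart (median -0.48, and 0.53 without them).

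The genes named by size for the rescue against the control were Pyy, described above, and 9 others. The antimicrobial lectin gene Reg3b was at 55.2 CPM in KO, 2773 in rescue and 3.70 in control EECs, with 64.4% of the rescue UMIs in 1 cell, and at 1916, 13160 and 487 CPM in the other Ptprc-free barcodes. Without the 3 deepest cells Reg3b was at 305 CPM in the rescue. Reg3g was at 40.7, 1326 and 1.23 CPM in EECs, and at 178 CPM in the 16 rescue cells. Hspb1, a small heat shock protein, was at 72.6, 82.9 and 0 CPM and the desaturase Scd2 at 69.7, 58.7 and 0 CPM, both seen in the KO as well, and at 185 and 19.3 CPM in the 16 rescue cells. The lowest were F3, Rrad, Gprc5a (72.6, 0 and 59.1 CPM), Lpl and the gastrin gene Gast (87.1, 1.73 and 128 CPM), of which 96.2% of the control UMIs came from 1 cell.

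Of 13 tested cell cycle genes 12 were at least 2-fold higher in rescue than in control EECs, with a median of 3.62. The list summed to 462 CPM in KO, 1974 in rescue and 371 in control EECs. Without the 3 deepest cells only 3 genes of the list were tested, none was higher and the median was -0.58, so proliferation genes in rescue EECs were those of the deep cells. Of 5 interferon genes 3 were higher and 1 lower (median 1.26, and -0.068 without the cells), of 7 YAP and TAZ targets 0 and 5 (-1.55), of 9 regenerative genes 3 and 1 (0.69), of 6 goblet genes 3 and 0 (1.07) and of 7 Paneth genes 0 and 7 (-2.06).

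Rescue EECs were then set against KO EECs, both CDC42flox/flox, over 4614 tested genes. Of these 24% were at least 2-fold apart, 753 higher (16.3%) and 355 lower (7.69%), with a median log2 ratio of 0.20. Higher genes were 68.0% of those apart, 51.0% after scaling to a median of 0 and 55.2% without the 3 deepest rescue cells, when 328 were higher and 266 lower.

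The regenerative and goblet genes were lower in rescue than in KO EECs. Of 12 tested regenerative genes 0 were higher and 7 lower, with a median of -1.85 (-1.23 without the 3 deepest cells), and in the other Ptprc-free barcodes all 23 were lower, with a median of -3.77, beside 11.9% of all 12908 genes tested there. All 8 tested goblet genes were lower, with a median of -3.99, among them Clca1 and Zg16, which in the KO rested on 2 cells. Rep15, which is not in the goblet list, was also named among the lowest genes. Nts and Anxa10 had no UMI in the rescue. Of the hormones, Pyy was 5.64 times lower in rescue than in KO EECs (5.27 to 6.04), or 2.55 times without the 3 deepest cells, and Gip 8.98 times higher (7.82 to 10.4), or 20.1 times without those cells, the second set by 1 rescue cell with 3190 of its 3231 UMIs.

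The EEC factors of the rescue stood above those of the KO once the deep cells were left out. Of 20 tested factors 4 were higher and 2 lower, with a median of -0.040 beside 0.20 for all genes, and without the 3 cells 8 of 17 were higher and 1 lower, with a median of 0.87, beside 10.7% higher, 8.70% lower and a median of 0.12 among all genes. Insm1 was at 313 CPM in rescue and 154 in KO EECs, 2.03 times higher (1.49 to 2.81), Nkx2-2 at 133 and 66.8 CPM, 1.99 times (1.24 to 3.32), and Rfx6 at 114 and 43.6 CPM, 2.62 times (1.48 to 4.94). Neurog3, with 18 UMIs in the rescue and 0 in the KO, was below the limit for testing. Vesicle genes were lower, 0 higher and 9 lower of 17 with a median of -0.99, but the median was -0.019 without the 3 cells. The genes highest in the rescue over the KO were Top2a (126 CPM in rescue, 0 in KO EECs), H2-Aa (57.0 and 0 CPM), Reg3b, 1600014C10Rik and Reg1, and over the 16 cells Top2a had 2 UMIs, H2-Aa 4, and 1600014C10Rik was at 27.0 CPM, against 136 in all 19, and Reg1 at 77.2, against 416.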

How the data were processed

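Small intestinal crypt cells of 3 genotypes were profiled in 1 droplet library each (10x 3′ chemistry). The deposited values are whole-number UMI counts per gene and barcode, made by the authors with Cell Ranger, version 3.0.2 for the KO and control and 3.1.0 for the rescue per the file headers, and 1.3.0 per the submitters' processing notes. No genome build is named in the sources read here. All genes of a library were summed over its EECs, and genes with at least 20 UMIs in 1 of 2 pools were compared, 2-fold counting as apart. The named genes had at least 50 CPM in 1 pool and a ratio interval that left out 1, and were the 10 highest and 10 lowest in the KO against the control, 5 and 5 in the other comparisons, and those highest over other barcodes in every library. Mitochondrial, ribosomal protein, sex-linked, defensin, immunoglobulin and haemoglobin genes were not named. The genes of the hormone, serotonin, granin, prohormone-processing and factor lists were named too, except 1 that is not reported here. The members and lists were chosen with earlier results of these data known. Thinning drew 2000 UMIs per cell without replacement, with a fixed seed. The comparison of 2 pools across genes (ratio, interval and 2-fold call) was tested on simulated counts. Software was Python 3.11.15, NumPy 2.4.6, SciPy 1.17.1, pandas 2.3.3, scikit-learn 1.9.0 and Matplotlib 3.10.9. Promoters came from RefSeq, build GRCm38.p6. Of the listed genes, 4 symbols were not in the table.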

Additional observations from a re-analysis of the deposited data

How the results depend on the processing

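No paired analysis was possible because each genotype was 1 library and the groups shared a single replicate number; for the same reason no replicate could be left out. Alternatives that drop the Muc2-positive cells, cells under 5000 UMIs, cells over 60000 UMIs or cells with Neurog3 were chosen after seeing the data. Of the main values, 66 kept their size and 21 moved, and of the other values 2805 kept their size, 817 moved and 17 reversed. Some kept values could not have moved. The pseudocount does not enter the 2-fold counts, and the gene filters do not change the log2 ratio of a gene. The doublet scores removed no EEC, and the limit of 60000 UMIs removed no KO or control cell. The tally is therefore no measure of stability. The cause was not tested.

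The EEC share was 0.923% in the KO with no mitochondrial limit and 4.08% in the rescue at a 10% limit. In the control it was 14.4% at 10%, 1.67% with no limit and 9.61% at 1000 genes and 5000 UMIs. Control cells with a Tph1 UMI after thinning were 60.5%. Genes 2-fold apart in KO against control, 1447, were 634 at a filter of 50 UMIs and 2914 at 5. In rescue against control, 1232, they were 546 at 50, 2766 at 5, 589 in Tph1-positive cells, 808 at 10 granin UMIs and 702 at a 10% mitochondrial limit. In rescue against KO, 1108, they were 417, 2876, 355, 545 and 618 under the same settings, 696 without the deepest cell of each library, 594 without cells over 60000 UMIs and 719 without cells with Neurog3.

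Log2 ratios turned in Tph1-positive cells for Iapp (-0.063), Slc18a2 (0.38) and Scgn (2.04) in KO against control, for Slc18a2 (0.31), Reg4 (0.93) and Vgf (0.50) in rescue against control, and for Gcg (-8.14) and Sox4 (0.0064) in rescue against KO. With equal weight per cell Scg3 turned to 0.16 in rescue against KO. In rescue against control the goblet median turned to -0.041 with equal weight, -0.27 at 10 granin UMIs and -0.082 without cells with Neurog3, and the cell cycle median to -0.028 at 10 granin UMIs and -0.58 without cells over 60000 UMIs, which also turned the interferon median to -0.068. In rescue against KO the cell cycle median turned to -0.89 at 10 granin UMIs and -0.62 without cells over 60000 UMIs.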
